A study of Homo sapiens with 4 samples.

Results

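The long arm of human chromosome 9 holds a run of 66.2 Mb, from base 71683366 to base 137870016 (hg38, the build in the submitters' processing notes), whose genes were read here as 1 block. A gene was a member when it started at or after 71683366 and had at least 100 exonic reads in each of 4 RNA libraries. Of 1006 annotated genes in the run, 296 were members, out of 43622 genes in the tables, and 292 of the members were protein-coding. Another 72 genes reached 100 reads in at least 1 library but not in all, and 638 stayed under it everywhere, 378 of them with 0 reads in all 4 libraries. The block was chosen by its low ratios between the adherent libraries of both lines as labelled, so the values of that pair describe the choice and support nothing.

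The libraries came from 2 human lung adenocarcinoma cell lines, A549, taken from a primary tumour, and NCI-H1993 (H1993), taken from a lymph node metastasis. Cells of either line were grown adherent, attached to plastic, or as spheroids, which are floating clusters used to enrich for cells with stem cell properties. The series was designed to compare triacylglycerol synthesis between both cultures, and its text also names an inhibitor and shRNA, but the labels of these 4 libraries give no such treatment. With 1 library per combination of line and culture, no value has a replicate check. Every interval printed below is a 95% counting interval that covers counting error only.

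Total exonic reads lay between 15331121 and 17681746 per library. Keratin genes were read in all 4 libraries (KRT8 from 32265 to 79513 reads), as were EPCAM (266 to 4716) and CDH1 (1487 to 3344), which mark epithelial cells. Markers of mature lung epithelium were at or near 0, with at most 2 reads for SFTPB and SFTPC and at most 13 for NKX2-1. Markers of other cell types were low but not all absent. PTPRC, of blood cells, had at most 45 reads, DCN, of fibroblasts, at most 22, COL3A1 35 to 174, COL1A1 147 to 592, and PECAM1, of endothelium, 2 to 129. The library labelled H1993 adherent went against its label in part. It had 266 reads of EPCAM and 666 of KRT19, closer to the 413 and 1311 of A549 adherent cells than to the 4716 and 28510 of H1993 spheroids. A549 spheroids had 308 and 5351. CDH1 was also closer to A549 adherent cells, with 1765 reads against 1642 there and 3344 in H1993 spheroids. Other markers did not follow this. NKX2-1 had 12 reads in the library labelled H1993 adherent, 13 in H1993 spheroids and 0 in both A549 libraries. KRT8 (32265) and KRT18 (18583) lay below both A549 adherent cells (82350 and 54346) and H1993 spheroids (79513 and 42450). The SD of that library's log2 ratios over autosomal genes outside the block was 0.45 against A549 adherent cells and 0.96 against H1993 spheroids. For scale, the SD was 0.76 for A549 spheroids over A549 adherent cells and 1.01 for H1993 spheroids over A549 spheroids. That library shares its culture with A549 adherent cells and not with H1993 spheroids, so culture and label cannot be told apart here. CDKN2A, a tumour suppressor that A549 is known to have lost, was chosen after its values were seen. It lies on chromosome 9 before the block and had 0 reads in both A549 libraries, 75 in that library and 308 in H1993 spheroids. Comparisons that hold this library are given as labelled, so a value called H1993 over A549 in adherent cells, or spheroid over adherent in H1993, may not compare what its labels say.

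Cancer cell lines often carry extra or missing copies of chromosome arms. Messenger RNA levels of many genes follow the number of gene copies in part, so neighbouring genes with unrelated roles can shift together. Regulated genes can depart from such a shift, because transcription factors that respond to nutrients, stress or culture act on them one by one. This arm holds genes of retinoid and prostaglandin metabolism, sphingolipid synthesis, serine synthesis, ribosomal proteins, the endoplasmic reticulum chaperone HSPA5, and regulators of growth such as TSC1 and NOTCH1. Only RNA was analysed here, so gene copies and other causes of a shared shift cannot be told apart.

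Promoter sequences are printed for 3 members, each 300 bases long with 250 bases before the start of transcription and 50 after it (RefSeq, GRCh38.p14). PSAT1, an enzyme of serine synthesis (chr9:78296875-78297174, plus strand), and IARS, the cytoplasmic isoleucyl-tRNA synthetase, now named IARS1 (chr9:92293648-92293947, minus strand), were the lowest members of the adherent pair among those with at least 500 reads in each library. HSPA5 (chr9:125241294-125241593, minus strand) did not share their low ratio. Capitals mark the ER stress element (CCAAT and CCACG with any 9 bases between them) in HSPA5 and the C/EBP-ATF element (TGATGNAA, here as its reverse complement) in IARS1, both searched on both strands after the values were seen.
HSPA5: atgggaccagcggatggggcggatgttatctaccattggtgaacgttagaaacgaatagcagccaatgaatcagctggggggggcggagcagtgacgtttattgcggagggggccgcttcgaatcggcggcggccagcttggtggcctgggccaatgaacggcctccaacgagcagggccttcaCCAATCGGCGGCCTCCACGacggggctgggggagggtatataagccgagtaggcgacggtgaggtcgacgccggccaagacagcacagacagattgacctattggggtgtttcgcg
IARS1: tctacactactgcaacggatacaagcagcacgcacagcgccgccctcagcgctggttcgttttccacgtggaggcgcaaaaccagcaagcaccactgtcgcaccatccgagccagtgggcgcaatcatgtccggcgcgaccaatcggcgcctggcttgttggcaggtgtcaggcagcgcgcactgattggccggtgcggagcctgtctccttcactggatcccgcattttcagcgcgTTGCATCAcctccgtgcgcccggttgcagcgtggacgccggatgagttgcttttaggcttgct
PSAT1: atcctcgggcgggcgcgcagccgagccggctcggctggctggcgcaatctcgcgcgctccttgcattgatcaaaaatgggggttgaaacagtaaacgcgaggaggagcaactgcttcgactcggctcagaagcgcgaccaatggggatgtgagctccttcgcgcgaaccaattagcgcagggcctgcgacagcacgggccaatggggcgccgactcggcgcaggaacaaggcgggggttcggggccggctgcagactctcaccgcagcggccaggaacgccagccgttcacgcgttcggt
The ER stress element was found in 27 of 35116 promoter windows of the genome (0.0769%). Among the 400 windows of the 263 members with a window it was found in 1 (0.25%), that of HSPA5. The C/EBP-ATF element was found in 1270 windows (3.62%) and in 6 of the 400 windows of the members, those of CDC26, IARS1, PHPT1, PRPF4, PTPN3 and TMEM268. The PSAT1 window held neither string of letters. These matches describe letters in a window and say nothing of binding.

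Values by library are given below in the order A549 adherent, A549 spheroid, H1993 adherent as labelled and H1993 spheroid. Members took 3.63%, 2.95%, 2.87% and 2.89% of all exonic reads in that order. A single gene set much of this share. ALDH1A1, a retinaldehyde dehydrogenase often used to mark stem-like tumour cells, gave 29.7%, 22.7%, 27.6% and 0.915% of the members' reads. Without ALDH1A1 the members took 2.58%, 2.30%, 2.10% and 2.87%, so H1993 spheroids stood highest and the library labelled H1993 adherent lowest. Medians over members, which 1 gene cannot set, are used from here on. Ratios are log2 ratios of reads scaled by TMM, a factor per library computed from the bulk of its genes, and a gene counts as lower or higher when its log2 ratio was at least 0.32 from 0 and its interval excluded 0.

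In the pair that drew the block, the members lay low together. The median log2 ratio of the library labelled H1993 adherent over A549 adherent cells was -0.46, a ratio of 0.727, with an interquartile range from -0.65 to -0.22. Over the 8888 other autosomal genes with the same read limit it was -0.02. Of the 296 members, 255 (86.1%) had a ratio below 0, against 52.8% of the other genes. Counted as lower were 191 members (64.5%) beside 19.4% of all 9184 autosomal genes, and as higher 11 members (3.72%) beside 16.4%. At 2-fold, 16 members were lower, beside 1.93% of all genes, and 0 were higher, beside 2.08%. The SD across members was 0.39 and that across the other genes 0.45. Nothing is read from these counts, since the pair was used to choose the block.

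**Figure D1:**
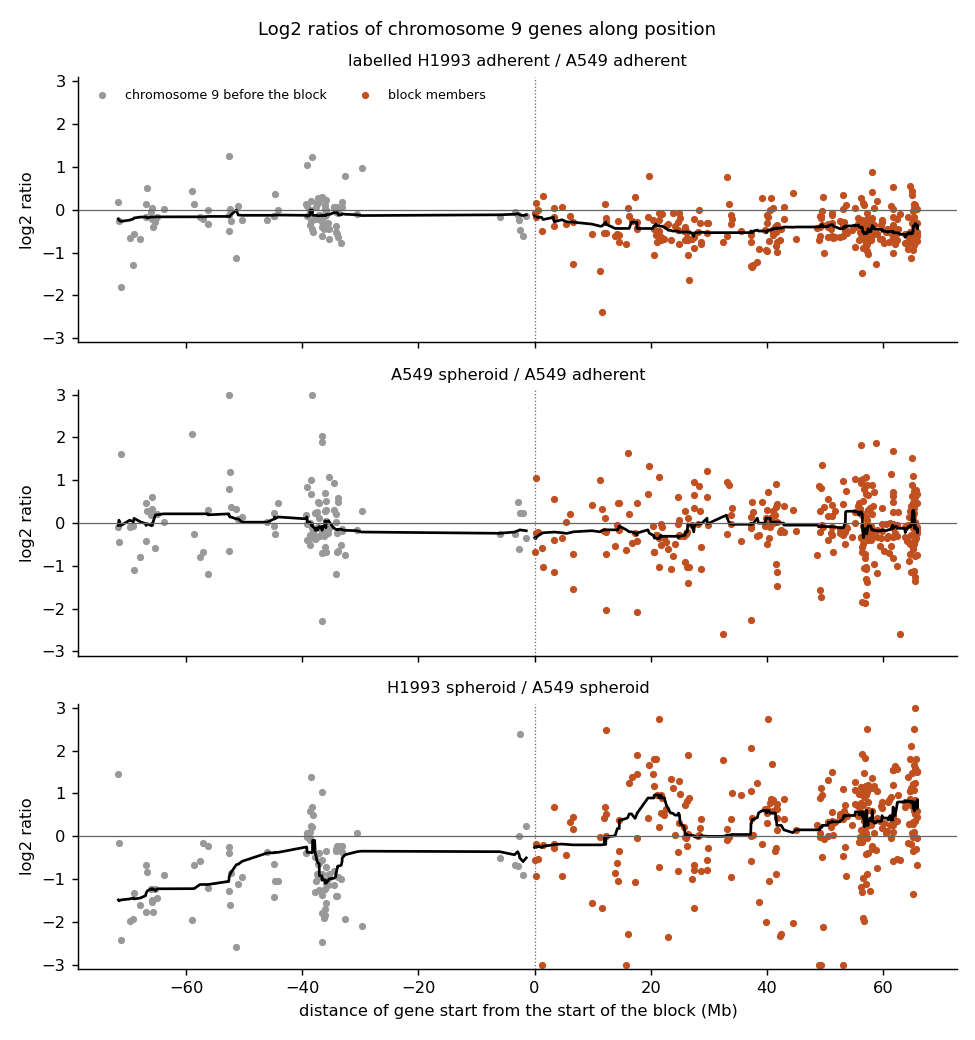
Log2 ratios (vertical axis) of chromosome 9 genes against the distance of the gene start from the start of the block in Mb (horizontal axis) in 3 comparisons, with block members in orange, genes before the block in grey and the running median of 25 genes as a black line. Points beyond 3 in size are drawn at the edge, and the line in the top panel stays below 0 along the whole block, where 12 stretches of about 25 members lay between -0.56 and -0.28.

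Along the block the adherent pair is described by stretches of consecutive members. In 6 consecutive stretches of about 50 members, the medians of the adherent pair were -0.31, -0.52, -0.40, -0.50, -0.51 and -0.51. Among 180 stretches of the same size elsewhere on the autosomes, 5 lay at or under -0.3, on chromosomes 15, 17 and 19. With about 25 members, 11 of 12 stretches of the block lay at or under -0.3, and 15 of 354 elsewhere, the lowest of those at -0.57. Some short stretches elsewhere were thus as low as the block. The 11 low stretches of the block stood in 1 run, and the longest such run elsewhere was 3 stretches, on chromosome 15. This pair drew the block and the stretches start anew at its edge, so the run describes the choice and supports nothing. The 4 stretches of about 25 genes before the block lay between -0.17 and -0.12.

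Genes on both sides of the start of the block had overlapping ratios. SMC5, a chromosome maintenance protein and the last gene before the block, stood at -0.15 (-0.27 to -0.04). PTAR1, a prenyltransferase subunit further before it, was already low at -0.61 (-0.72 to -0.49). The first members lay near 0, with TMEM2 (now CEMIP2, a cell surface hyaluronidase) at -0.07, ABHD17B, which removes palmitate from proteins, at -0.18, C9orf85 at 0.16 and ZFAND5, a ubiquitin-binding protein, at 0.00. Of the first 25 members, which end at GOLM1, 19 were below 0. In each of the next 7 stretches 21 to 24 were, and in the last 4, of 24 members each, 20, 21, 21 and 18. At the far end EHMT1, a histone H3 lysine 9 methyltransferase, stood at -0.60 (-0.73 to -0.47) and ARRDC1, an arrestin-domain adaptor of ubiquitin ligases, at -0.51 (-0.72 to -0.31), with ARRDC1-AS1 between them at 0.01 (-0.27 to 0.30). ARRDC1 and ARRDC1-AS1 overlap, and whether reads were counted by strand is not stated, so both values are uncertain. Just inside the read limit were TRMO (101 reads in its lowest library, -0.66), COL27A1 (101, -0.44) and RMI1 (102, -0.18), and just outside it NR6A1 (99, -0.20) and NAIF1 (98, -0.06).

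The other chromosomes give the scale of such shifts. Over 22 other parts of the autosomes, counting chromosome 9 before the block as 1, the median of the adherent pair ran from -0.24 on chromosome 17 to 0.08 on chromosome 7, and chromosome 9 before the block stood at -0.14. Chromosomes 15 (-0.23) and 2 (-0.17) were the next lowest. In A549 spheroids over A549 adherent cells, where both libraries carry the same line's label, the parts ran from -0.16 to 0.01 and the block lay at -0.10. In H1993 spheroids over A549 spheroids the parts ran from -0.87 to 0.80, so the block at 0.40 lay within the range, below chromosome 18 alone.

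**Figure D2:**
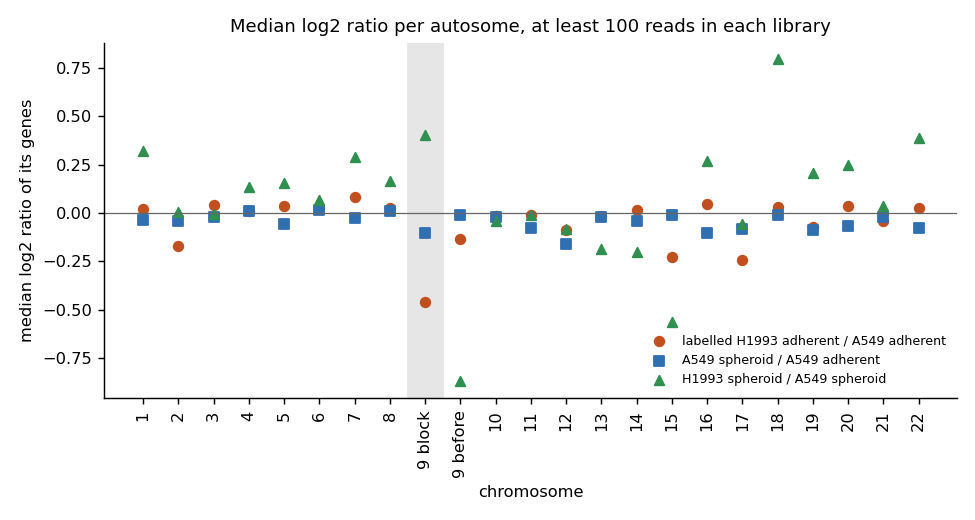
Median log2 ratio (vertical axis) of the genes of each autosome (horizontal axis), for 3 comparisons given by symbol, with the block shaded and chromosome 9 before the block on its own. In the adherent pair the block lay lowest at -0.46, and in the spheroids of both lines it lay at 0.40 while chromosome 9 before the block lay at -0.87.

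Between cultures of A549 the block lay close to the other autosomal genes. The median log2 ratio of A549 spheroids over A549 adherent cells was -0.10 in the block and -0.05 over the other autosomal genes. Counted as lower were 95 members (32.1%) beside 30.4% of all autosomal genes, and as higher 77 members (26%) beside 26.3%. At 2-fold 32 members were lower, beside 6.54%, and 17 higher, beside 6.89%. Scaling by total reads in place of TMM lowers every ratio of this pair by 0.11, which takes the median of all autosomal genes from -0.05 to -0.16. With that scaling 123 members (41.6%) were lower, beside 37.8% of all autosomal genes, and 63 (21.3%) higher, beside 21.2%, and the gap between the block and the other genes stayed at -0.05. This comparison shares the A549 adherent library with the pair that drew the block.

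Between the lines in spheroid culture the block lay higher in H1993. This comparison shares no library with the pair that drew the block. The median log2 ratio of H1993 spheroids over A549 spheroids was 0.40 in the block, a ratio of 1.32, and 0.08 over the other autosomal genes. Counted as higher were 161 members (54.4%) beside 38.5% of all autosomal genes, and as lower 61 (20.6%) beside 31.1%. Chromosome 9 before the block went the other way, at -0.87, with 85 of its 100 genes below 0 and 74 counted as lower. The members spread more widely here than in the adherent pair, with an SD of 1.07, and so did the other autosomal genes, with an SD of 1.01. The members had an interquartile range from -0.18 to 0.96. Along the block the 12 stretches of about 25 members ran from -0.20, in the first, to 0.89 in the second, between ISCA1 and MFSD14B. Of the 12, 11 were above 0. Elsewhere on the autosomes 354 such stretches ran from -1.41 to 1.86, and 197 of them were above 0.

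In H1993 as labelled, spheroids stood above the adherent library along most of the block. The median of H1993 spheroids over the library labelled H1993 adherent was 0.75, a ratio of 1.68, against 0.05 over the other autosomal genes. Counted as higher were 212 members (71.6%) beside 37.2% of all autosomal genes, and as lower 40 (13.5%) beside 30.4%. At 2-fold 104 were higher, beside 13.1%, and 20 lower, beside 10.3%. The median was above that of each of the 22 other parts, the highest of which was chromosome 18 at 0.71, but the block's value holds the low library of the pair that drew it. With A549 adherent cells in its place, H1993 spheroids stood at 0.32 in the block and 0.03 elsewhere, with 147 members higher (49.7%) beside 35.3%, and 67 lower (22.6%) beside 32.9%. The part that the doubtful label plays in the difference between 0.75 and 0.32 was not tested.

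**Figure D3:**
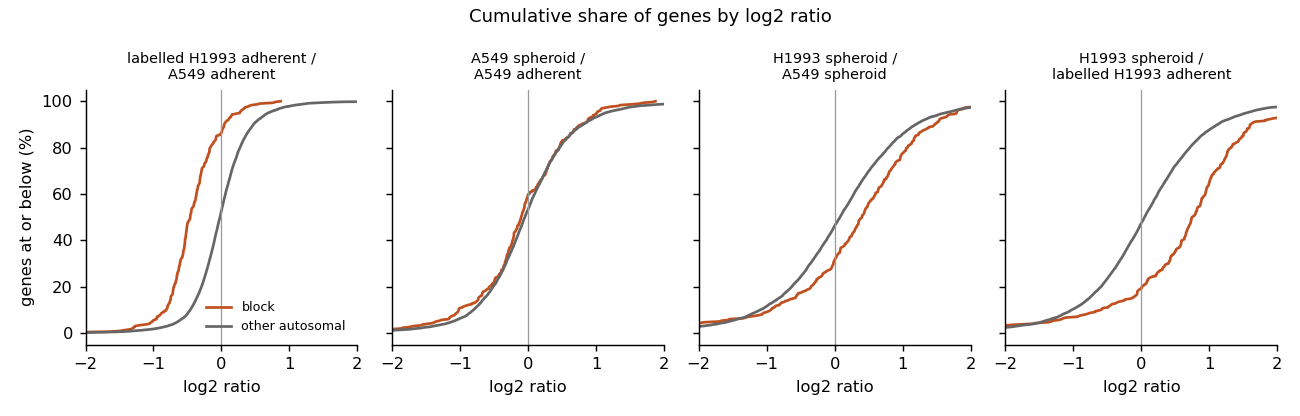
Cumulative share of genes in percent (vertical axis) at or below each log2 ratio (horizontal axis), in 4 comparisons, for the 296 members in orange and the 8888 other autosomal genes in grey. The curves lie close in the A549 pair, and the members lie to the left in the adherent pair and to the right in both comparisons that hold H1993 spheroids.

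Ranking the 4 libraries gene by gene set out the same values another way. The library labelled H1993 adherent was the lowest of the 4 for 169 members (57.1%), against 17.3% of the other autosomal genes, and the highest for 9 (3.04%), against 15.6%. H1993 spheroids were the highest for 162 members (54.7%), against 37.3% elsewhere. For 67 members (22.6%) the library labelled H1993 adherent lay between A549 adherent cells and H1993 spheroids, for 214 (72.3%) below both and for 15 (5.07%) above both. Over the other autosomal genes those shares were 46.6%, 29.4% and 24.0%. Over the 100 genes of chromosome 9 before the block, 57 lay between, 14 below both and 29 above both. These ranks hold the libraries of the pair that drew the block and are a description.

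**Figure D4:**
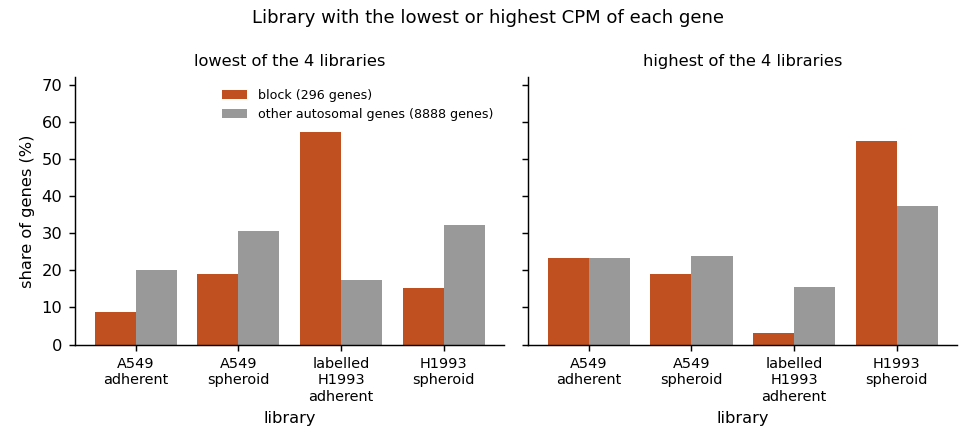
Share of genes in percent (vertical axis) for which each library (horizontal axis) had the lowest level (left) or the highest level (right) of the 4, for the 296 members in orange and the other autosomal genes in grey. The library labelled H1993 adherent was lowest for 57.1% of members and 17.3% of other genes, and H1993 spheroids were highest for 54.7% and 37.3%.

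Intron reads, which come largely from unspliced transcripts, gave medians near those of exon reads in 3 of the 4 comparisons, and a median near 0 in the A549 pair. Of the members, 224 had at least 20 intron reads in each library. Their median was -0.44 in the adherent pair, against 0.00 over 6788 other autosomal genes, -0.04 in the A549 pair (0.024 over 265 genes of the block whatever their exon reads), 0.33 in the spheroids of both lines and 0.77 in H1993 as labelled. Exon and intron ratios had the same sign in 190, 167, 180 and 195 of the 224 members in that order, with Pearson correlations across members of 0.61, 0.70, 0.86 and 0.89. Both kinds of read come from the same libraries, and neighbouring members are not independent.

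The medians of the adherent pair, which drew the block, varied little with properties of the members, and this describes the choice. Split into 3 groups of like size by mean level, the members' medians in the adherent pair were -0.47, -0.52 and -0.38 from low to high. By exon length they were -0.46, -0.46 and -0.47, and by the length of the gene -0.38, -0.50 and -0.47. By the GC content of the promoter window, which 263 members (88.9%) had, they were -0.43, -0.44 and -0.51. In H1993 spheroids over the library labelled H1993 adherent, the medians rose with GC content, at 0.59, 0.76 and 0.89. By mean level they were 0.80, 0.82 and 0.73 there. Of the members, 167 overlap another gene in the tables and 129 do not, and 15 had under 90% of their exon reads placed at 1 location. Among those 15 are RPL12 and RPL7A, whose reads may be shared with near-identical copies, and GNG10 and DNAJC25, which share sequence with their read-through gene.

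Members of redox and central metabolism, like most members, were mostly lower in the adherent pair, which drew the block. Of 21 genes listed for these roles, 14 were members, of which 12 were lower and 0 higher in the adherent pair, at a median of -0.50. Of all 296 members 64.5% were lower and 3.72% higher in that pair, beside 19.4% and 16.4% of all autosomal genes. Here and in the lists below, counts of that pair describe the choice of the block and support nothing. Between spheroids 5 of the 14 were higher and 3 lower, at a median of 0.065, against 161 and 61 of all 296 members. The shares of all autosomal genes were 38.5% and 31.1%. ALDH1A1 (chr9:72900662-73080442) had 168936, 118358, 131387 and 4059 reads. It was thus high in 3 libraries and low in H1993 spheroids alone, with a log2 ratio of -4.75 (-4.79 to -4.70) against A549 spheroids. TXN, the thioredoxin that reduces protein disulphides, had 10440, 9005, 6091 and 2841 reads. It was highest in A549 adherent cells and lowest in H1993 spheroids, with -0.91 (-0.95 to -0.86) in the adherent pair and -1.55 (-1.61 to -1.49) in the spheroids. PSAT1 (chr9:78297143-78330093) had 5273, 3347, 2380 and 3490 reads, and it stood in the adherent pair at -1.28 (-1.35 to -1.21). A549 adherent cells stood highest for it, while the spheroids of both lines were 0.18 (0.11 to 0.25) apart. FPGS, which adds glutamates to folate, stood at -0.51 in the adherent pair and 0.72 between spheroids, but at -0.64 between spheroids by intron reads. The list also holds URM1, which modifies transfer RNA.

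A pair of transporters of this group stood higher in spheroids in both lines as labelled. SLC31A1, the copper importer, had 1102, 2167, 933 and 1637 reads, and SLC44A1, a choline transporter, 2063, 3993, 2487 and 3634. Spheroid over adherent, SLC31A1 stood at 0.91 (0.81 to 1.02) in A549 and 0.99 (0.88 to 1.11) in H1993, and SLC44A1 at 0.89 (0.81 to 0.97) and 0.73 (0.66 to 0.80). Over the 14 members, 7 were higher and 3 lower in the A549 pair, and 10 higher and 4 lower in the H1993 pair. Of all autosomal genes 26.3% were higher and 30.4% lower in the A549 pair, and 37.2% and 30.4% in the H1993 pair. Of all members the shares were 26% and 32.1%, and 71.6% and 13.5%. The share of the 14 that was higher in the H1993 pair thus lay near that of all members. ASS1, the argininosuccinate synthase of arginine synthesis, was chosen after its values were seen. Its reads were 559, 2141, 252 and 1587, and both spheroid libraries stood above both adherent ones, by 1.87 in A549 and 2.84 in H1993.

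Most lipid genes lay higher in H1993 spheroids than in A549 spheroids. Of 20 listed genes of lipid and prostaglandin metabolism 17 were members. In H1993 spheroids over A549 spheroids 12 of the 17 were higher and 1 lower, at a median of 0.91, against 0.40 over all members. Of all members 54.4% were higher and 20.6% lower there, beside 38.5% and 31.1% of all autosomal genes. UGCG, the glucosylceramide synthase (chr9:111896766-111935369), had 589, 1012, 570 and 6239 reads. H1993 spheroids stood far above the other 3 libraries, with a log2 ratio of 2.74 (2.65 to 2.84) against A549 spheroids. ABCA2, a lipid transporter of endosomes and lysosomes, had 1085, 1895, 1209 and 5531 reads, and SPTLC1, a subunit of the enzyme that starts sphingolipid synthesis, 949, 942, 884 and 2382. Their ratios in the spheroids were 1.66 (1.59 to 1.74) and 1.46 (1.35 to 1.57). AGPAT2, an acyltransferase on the way to triacylglycerol, had 746, 1439, 657 and 2331 reads, which put both spheroid libraries above both adherent ones. RXRA, the partner of nuclear receptors that sense lipids, stood at 0.97 in the spheroids and -0.45 in the adherent pair. Also counted in this list was FNBP1, which binds membranes and is not an enzyme of lipid metabolism.

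Of the 11 members counted as higher in the adherent pair, 2 were lipid genes, PTGES and ABCA1. PTGES, which makes prostaglandin E2, had 1253, 1044, 2507 and 2113 reads, so that both libraries labelled H1993 stood above both of A549. Its ratio was 0.87 (0.77 to 0.97) in the adherent pair and 1.13 (1.03 to 1.24) in the spheroids. ABCA1, the cholesterol exporter, had 698, 1414, 1294 and 1468 reads and was low in A549 adherent cells alone, with 0.76 (0.63 to 0.90) in the adherent pair. PTGR1, prostaglandin reductase 1, went the other way, with 5416, 6125, 3072 and 1408 reads. It was low in both libraries labelled H1993, at -0.95 (-1.01 to -0.88) in the adherent pair and between -2.09 and -1.92 in the spheroids. Over the 17 lipid members, 7 were lower and 2 higher in the adherent pair, at a median of -0.30. In that pair, which drew the block, 64.5% of all members were lower and 3.72% higher, beside 19.4% and 16.4% of all autosomal genes.

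**Figure D5:**
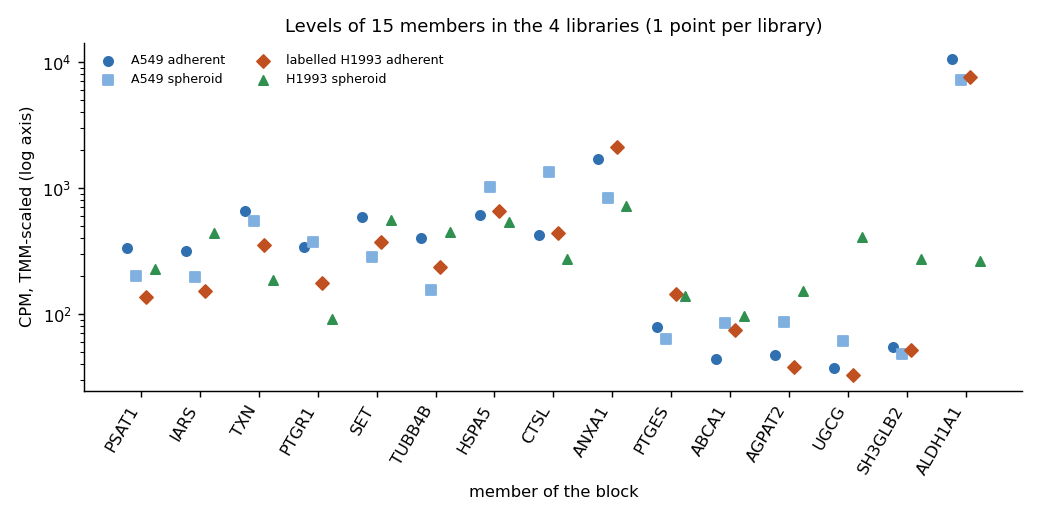
Level in CPM, TMM-scaled, on a log axis (vertical) of 15 members (horizontal axis) in the 4 libraries, 1 point per library and no error bars. Within a gene, PSAT1 was lowest and ANXA1 highest in the library labelled H1993 adherent, UGCG and SH3GLB2 were high in H1993 spheroids alone, and ALDH1A1 was low there alone.

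Translation and mitochondrial genes had medians near that of the block in the adherent pair, and differed more from it in some other comparisons. Of 23 listed genes of translation, RNA handling and protein turnover 22 were members, and 15 were lower and 1 higher in the adherent pair at a median of -0.42. In the spheroids of both lines 17 were higher and 1 lower, at 0.48. In A549 spheroids over adherent cells 7 were lower and 2 higher, at -0.21 beside -0.10 for all members. Shares lower and higher in that A549 pair were 32.1% and 26% of all members, and 30.4% and 26.3% of all autosomal genes. Of all members 64.5% were lower and 3.72% higher in the adherent pair, which drew the block. Between spheroids 54.4% of all members were higher and 20.6% lower. Of all autosomal genes 19.4% were lower and 16.4% higher in the adherent pair, and 38.5% higher and 31.1% lower between spheroids. RPL35, a ribosomal protein of the large subunit, had 7380, 6310, 5274 and 7684 reads, and was lowest in the library labelled H1993 adherent at -0.61 (-0.67 to -0.56). HNRNPK, an RNA-binding protein, had 12492, 7855, 11173 and 10379 reads and was low in A549 spheroids, at -0.73 (-0.77 to -0.69) against A549 adherent cells. IARS (chr9:92210207-92293756) had 4994, 3258, 2639 and 6738 reads. It was lowest in the library labelled H1993 adherent, at -1.05 (-1.12 to -0.98) in the adherent pair, and highest in H1993 spheroids, at 1.17 (1.11 to 1.23) against A549 spheroids. Its intron reads went against its exon reads in the A549 pair, at 0.46 against -0.68 (-0.74 to -0.62).

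Of 15 listed mitochondrial genes 13 were members, and 11 were lower and 0 higher in the adherent pair at a median of -0.52. Those calls stood beside 64.5% and 3.72% of all members in this pair, which drew the block. Of all autosomal genes 19.4% and 16.4% were called. MRRF, which recycles mitochondrial ribosomes, had 979, 778, 683 and 1769 reads, with -0.65 (-0.79 to -0.51) in the adherent pair and 1.30 (1.18 to 1.43) in the spheroids. PMPCA, a subunit of the peptidase that trims imported proteins, had 1180, 1189, 904 and 1994 reads. MRPL41, of the mitochondrial ribosome, differed from these in the spheroids, at -0.68 (-0.82 to -0.53), with its highest value, 1078 reads, in A549 spheroids. Between spheroids 6 of the 13 were higher and 3 lower, at a median of 0.27 beside 0.40 for all members. Shares higher and lower between spheroids were 54.4% and 20.6% of all members, and 38.5% and 31.1% of all autosomal genes. In H1993 as labelled, 10 of the 13 were higher in spheroids and 0 lower, at a median of 0.82 beside 0.75 for all members. Shares higher and lower there were 71.6% and 13.5% of all members, and 37.2% and 30.4% of all autosomal genes. The list also holds NTMT1, a methyltransferase of protein N termini.

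Genes of DNA repair, the cell cycle and chromatin were low in A549 spheroids as well. Of 26 listed genes 20 were members, and 18 were lower and 0 higher in the adherent pair at a median of -0.57. That pair drew the block, and 64.5% of all members were lower and 3.72% higher in it, beside 19.4% and 16.4% of all autosomal genes. In A549 spheroids over adherent cells 10 of the 20 were lower and 1 higher, at a median of -0.34, against -0.10 over all members. Of all members 32.1% were lower and 26% higher there, beside 30.4% and 26.3% of all autosomal genes. SET, a histone chaperone, had 9406, 4692, 6521 and 8475 reads, and NUP188, a nuclear pore protein, 1434, 575, 897 and 1080. Both were lowest in A549 spheroids, at -1.07 (-1.12 to -1.02) and -1.38 (-1.52 to -1.24). POLE3, a histone-fold subunit of DNA polymerase epsilon, stood at -1.16 (-1.29 to -1.03) there. Of members outside the list, TUBB4B, a beta-tubulin, had 6309, 2585, 4071 and 6875 reads, and WDR5, a core subunit of histone H3 lysine 4 methyltransferases, 1151, 598, 767 and 1626. These 2 had the same order of libraries as each other, lowest in A549 spheroids and highest in H1993 spheroids. The list also holds TRMO, a transfer RNA methyltransferase, HDHD3, a hydrolase-like protein, and FBXW2 and FBXW5, which pick substrates for ubiquitin ligases. RAD23B, of nucleotide excision repair, had 4248, 3293, 3291 and 5940 reads and was high in H1993 spheroids.

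Genes of the secretory pathway and lysosome lay nearer to 0 in the adherent pair and mostly higher in A549 spheroids. Of 24 listed genes 22 were members, of which 5 were lower and 0 higher in the adherent pair, at a median of -0.13. In that pair, which drew the block, 64.5% of all members were lower and 3.72% higher, beside 19.4% and 16.4% of all autosomal genes. In A549 spheroids over adherent cells 16 of the 22 were higher and 2 lower, at 0.45. Of all members 26% were higher and 32.1% lower there, beside 26.3% and 30.4% of all autosomal genes. HSPA5, the chaperone whose promoter holds the ER stress element printed above (gene at chr9:125234853-125241330), had 9681, 16960, 11427 and 8257 reads and was highest in A549 spheroids. Its ratio was 0.11 (0.07 to 0.15) in the adherent pair and 0.75 (0.71 to 0.78) in the A549 pair. In the spheroids of both lines it stood at -0.92 (-0.96 to -0.88) by exon reads but at 1.01 by intron reads. CTSL, a lysosomal cysteine protease, had 6785, 22142, 7612 and 4177 reads. A549 spheroids alone were high, with 1.64 (1.60 to 1.68) over A549 adherent cells, and the adherent pair differed by 0.04 (-0.01 to 0.08). GOLGA2, a Golgi matrix protein, had 1194, 2529, 1450 and 3858 reads, with both spheroid libraries above both adherent ones. SURF4, a cargo receptor for export from the endoplasmic reticulum, had 4137, 6118, 4564 and 5994 reads with the same order of cultures, but its intron reads in the A549 pair gave -0.055.

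Signalling members had counts near those of all genes between spheroids. Of 31 listed signalling genes and transcription factors 14 were members, and 8 were lower and 1 higher in the adherent pair. Those calls stood beside 64.5% and 3.72% of all members in this pair, which drew the block. Of all autosomal genes 19.4% and 16.4% were called. In the spheroids of both lines 6 of the 14 were higher and 4 lower, beside 38.5% and 31.1% of all autosomal genes. VAV2, a guanine nucleotide exchange factor, had 827, 740, 515 and 2127 reads and was high in H1993 spheroids at 1.64 (1.52 to 1.76). DAPK1, a death-associated kinase, had 2067, 1393, 1303 and 158 reads and was low there at -3.02 (-3.27 to -2.78). TGFBR1, a receptor for TGF-beta, had 1167, 1563, 686 and 447 reads, low in both libraries labelled H1993. TLE1, a corepressor, and ABL1, a tyrosine kinase, were also lower in H1993 spheroids than in A549 spheroids, at -1.55 and -0.74. Intron reads of ABL1 gave 0.41. NOTCH1, named after its values were seen, had 547, 259, 273 and 1028 reads.

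Of 22 listed genes of adhesion, matrix and cytoskeleton 15 were members. Of these, 9 were lower and 2 higher in the adherent pair, and 6 lower and 5 higher between spheroids. CDK20, a cyclin-dependent kinase, was also in this list and was among those higher between spheroids, at 1.24. Shares lower and higher of all members were 64.5% and 3.72% in the adherent pair, which drew the block, and 20.6% and 54.4% between spheroids. Of all autosomal genes they were 19.4% and 16.4%, and 31.1% and 38.5%. ANXA1, a phospholipid-binding protein, had 26706, 13695, 36553 and 10963 reads. It was highest in the library labelled H1993 adherent, at 0.32 (0.30 to 0.35), and both spheroid libraries stood below both adherent ones. DNM1, a dynamin that pinches off vesicles, had 3220, 2664, 1901 and 650 reads, low in H1993 spheroids at -1.92 (-2.04 to -1.79). FAM129B (now NIBAN2) had 4224, 5506, 2812 and 9994 reads and was high there at 0.98 (0.93 to 1.03). GSN, which severs actin filaments, had 1065, 2841, 1150 and 1866 reads, with both spheroid libraries above both adherent ones. Among members outside the lists, PAPPA, a protease that frees insulin-like growth factors, had 4350, 5590, 6209 and 1262 reads, and STOM, a membrane scaffold protein, 2554, 2507, 3428 and 527. Both were highest in the library labelled H1993 adherent and lowest in H1993 spheroids, against the order of most members.

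Other members with at least 500 reads lay on either side of the median of the block, -0.46, in the adherent pair. IER5L had 2438, 3152, 1301 and 2214 reads, and LRRC8A, the required subunit of the volume-regulated anion channel, 1144, 2197, 646 and 1100. Both were lowest in the library labelled H1993 adherent, at -1.04 (-1.13 to -0.94) and -0.95 (-1.09 to -0.81), and highest in A549 spheroids. SH3GLB2, an endophilin, had 863, 803, 894 and 4201 reads, so the adherent pair was level at -0.08 (-0.21 to 0.06) and H1993 spheroids alone were high, at 2.50 (2.40 to 2.62). The members that varied least over the 4 libraries among those with 500 reads or more were RNF20, NINJ1, PSMD5, GNG10 and TOR1A. RNF20, a ubiquitin ligase for histone H2B, had 907, 919, 798 and 704 reads, and PSMD5, a proteasome assembly chaperone, 1388, 1249, 1148 and 1219. For these 5 the adherent pair was below 0, as it was for 86.1% of all members, from -0.40 for PSMD5 to -0.11 for GNG10.

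Neighbours could differ within the block. SURF1, an assembly factor of cytochrome oxidase, and SURF2 lie on opposite strands and their spans share 125 bases, and this pair was chosen after its values were seen. SURF1 had 384, 659, 327 and 731 reads, with both spheroid libraries high. SURF2 had 214, 126, 116 and 265 reads, lowest in the library labelled H1993 adherent. In A549 spheroids over adherent cells SURF1 and SURF2 stood at 0.72 and -0.83, so they moved apart by culture in A549. They did not in H1993 as labelled, where both had more reads in spheroids, 731 against 327 and 265 against 116. Both lay below 0 in the adherent pair, at -0.36 and -1.01. Reads from the shared bases may count for either gene.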

How the data were processed

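A stranded mRNA kit with limited PCR cycles made each library from total RNA, per the labels' protocols. The genome build was hg38, per the submitters' processing notes. Which aligner, counter and annotation served is not given in the sources used here. Per library, the authors deposited 1 table of total and unique read counts per gene over exons and introns, and of TPM, per the file headers. TPM entered no comparison.

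Genes were kept by edgeR 4.0.16 (filterByExpr, 15273 genes) in R 4.3.3 and total exon counts were scaled by TMM. Intervals of a ratio are exact Clopper-Pearson intervals of both counts. With 1 library per group, no significance test was run. DESeq2 1.42.0 size factors were an alternative scaling. The scripts were tested on simulated data.

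The members, the 8 gene lists and the tests were chosen with earlier results of these data known. Named genes are those at the edges of the block and of the read limit, the 10 with the most reads, the 8 lowest and 8 highest with at least 500 reads in each comparison, up to 6 per list, and the 5 that varied least. Gene IDs of 294 members matched the symbol table, 14 under another current symbol. Some genes that this rule names are not reported here.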

Additional observations from a re-analysis of the deposited data

Results flagged for a closer look

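Several results had opposite directions under the same contrast in both lines or both cultures. There was 1 library for each, so none of these differences was tested, and comparisons that share a library are not independent. Spheroid over adherent, the median log2 ratio of the block was -0.10 in A549 and 0.75 in H1993 as labelled. CTSL stood at 1.64 in A549 and -0.68 in H1993, while IARS stood at -0.68 and 1.54, SET at -1.07 and 0.56, WDR5 at -1.01 and 1.27, and TUBB4B at -1.35 and 0.94.

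H1993 over A549, the median of the block was -0.46 between the adherent libraries and 0.40 between the spheroids. IARS stood at -1.05 and 1.17, MRRF at -0.65 and 1.30, NUP188 at -0.81 and 1.03, VAV2 at -0.81 and 1.64, WDR5 at -0.71 and 1.56, TUBB4B at -0.76 and 1.53, and ARRDC1 at -0.51 and 1.53. The adherent library labelled H1993 had reads of CDKN2A (75) that A549 adherent cells (0) lacked and fewer than H1993 spheroids (308). The part of its label in these reversals was not tested. ARRDC1 had 29.1% of its exon reads placed at 1 location.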

How the results depend on the processing

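The block was recomputed under other scalings, read limits, kinds of read and fold limits. Of these alternatives to the values of the block, 99 stayed near the main value, 18 moved and 2 reversed. A share stayed when it was within 1.5-fold of the main share. A median stayed within a 95% interval of the main median, set from the ranked ratios of the members and not from counting error. By this rule the lower share stayed in the adherent pair (64.5%, and 47.2% by intron reads) and in the A549 pair (32.1%, and 22.6%). In the adherent pair the higher share was 5.91% at 10 reads, and the median by intron reads, over 265 genes of the block whatever their exon reads, was -0.40. At 1.5-fold, 32.1% were lower and 1.01% higher there, and 18.9% and 15.9% in the A549 pair. At 2-fold the shares lower and higher were 5.41% and 0% in the adherent pair, 10.8% and 5.74% in the A549 pair, 9.12% and 22.6% between spheroids and 6.76% and 35.1% in H1993 as labelled. A larger fold limit leaves fewer calls by construction. The A549 median was -0.21 with total-read scaling and 0.024 by intron reads. The mean of the H1993 pair was 0.64. With H1993 spheroids in place of the library labelled H1993 adherent, chosen after seeing the data, the adherent median became 0.32, with 22.6% lower and 49.7% higher.

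Intron reads reversed 18 of 256 values of named genes. In the A549 pair IARS became 0.46, DNM1 0.25, LPAR1 -0.28, ABCA2 -0.26, UGCG -0.43, SURF4 -0.055, TGFBR1 -0.10 and SPTAN1 0.027. Between spheroids C9orf85 became 0.057, HSPA5 1.01, PRPF4 -0.48, FPGS -0.64, ABL1 0.41 and ARPC5L -0.042. In the H1993 pair PSAT1 became -0.037, HSDL2 -0.30, GOLM1 0.51 and FBXW2 -0.11. The cause was not tested. Total-read scaling left 285 of 308 named values on their side of the limit, DESeq2 factors 301, and TMM without chromosome 9 302. No paired analysis was possible because each group had 1 library, and none could be left out. Low reads limit TRMO and COL27A1 most.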
